A study of Arabidopsis thaliana with 12 samples.

Results

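The transcripts of 4 genes for xyloglucan endotransglucosylase/hydrolases, XTH26, XTH19, XTH32 and XTH33, were followed in dark-grown seedlings of Arabidopsis thaliana. They were chosen by name, with earlier results of these data known, as the probe sets annotated to each of these single genes, and 1 probe set was found for each, 4 of the 13436 probe sets that name 1 gene among 22810 in all. Each of 12 Affymetrix arrays held RNA from whole seedlings 3 days old, with 2 arrays in each of 6 groups. The groups were the wild type Col-0 and the mutant eto1-4, in the Col-0 background, on 0.5x MS medium, and eto1-4 on the same medium with 10 µM of 9393, 9370, 7303 or AVG. No group of Col-0 with a compound is analysed here, so each compound was seen in eto1-4 alone. The study asked how compounds picked as ethylene antagonists act in the mutant. AVG is aminoethoxyvinylglycine, an inhibitor of ACC synthase and of other enzymes that use pyridoxal phosphate, and the compounds 9393, 9370 and 7303 are described by their codes alone.

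XTH enzymes act in the cell wall on xyloglucan, the hemicellulose that coats and tethers cellulose microfibrils. They cut a xyloglucan chain and join the new end to another chain, or in some family members to water, and are known for loosening and remodelling walls during cell growth. Ethylene is made from ACC, and ETO1 marks some of the ACC synthases, which make ACC, for breakdown, so eto1 mutants overproduce ethylene. In the dark, seedlings rich in ethylene have a short, thick hypocotyl, a tight apical hook, and more and longer root hairs. The ETO1 transcript itself is not analysed here.

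Control probe sets for poly-A spike RNA, which is added to a sample before labelling, divided the arrays. Their median signal was between 3.77 and 5.95 on 4 arrays, replicate 1 of Col-0, eto1-4, 9393 and 9370, and between 43.5 and 81.6 on the other 8. No label names a batch. Both arrays of 7303 and of AVG carried the spike, so each of the 4 other groups has 1 array in either set. On replicate 1 of eto1-4 the summed signal of 3 seed genes was 12312, against 1898 on replicate 2 and a highest value of 2871 in the other groups. Signals were compared on the log2 scale after adding an offset of 22.4, in a limma fit of all 12 arrays and 14830 tested probe sets, and a gene was called at an adjusted p under 0.05. Whole seedlings were used, so fewer cells of a type and less RNA per cell cannot be told apart.

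XTH26, known from roots and root hairs, rose in eto1-4 and fell under 9370 and AVG. Its signal was 3.75 and 28.6 on the Col-0 arrays and 182.6 and 391.6 on the untreated eto1-4 arrays. In treated eto1-4 it was 52.0 and 49.6 under 9393, 27.8 and 40.2 under 9370, 89.8 and 42.3 under 7303, and 1.86 and 32.7 under AVG. The untreated eto1-4 arrays stood above all 10 others. Among the other groups the ranges overlapped for 7303 and 9393, for 9370 and Col-0, for 9370 and AVG and for Col-0 and AVG, while both arrays of 7303 and of 9393 lay above both of Col-0, of 9370 and of AVG. The gene was dim: its signal passed the 40th percentile of the array on 3 arrays, both of eto1-4 and 1 of 7303, and fell short of it on 9. It therefore entered the test through eto1-4, the group where it was high, so that a difference was built into its selection and its adjusted p-values describe these arrays without being independent support.

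Against Col-0, XTH26 rose by 3.00 ± 0.51 (SE) on the log2 scale in eto1-4 (adjusted p = 0.0226, or 0.0287 with no filter on dim probe sets, n = 2 arrays per group). Against untreated eto1-4 it stood at -2.99 ± 0.51 with AVG (adjusted p = 0.0154, or 0.0212 with no filter) and at -2.38 ± 0.51 with 9370 (adjusted p = 0.0350, or 0.0461 with no filter), both called. With 9393 it was -1.99 (95% interval -3.13 to -0.86, adjusted p = 0.104) and with 7303 it was -1.77 (-2.91 to -0.64, adjusted p = 0.0761), and neither was called. The means under AVG and in Col-0 were 17.3 ± 21.8 and 16.2 ± 17.6 (SD), and the difference between them was 0.00 with an interval from -1.14 to 1.14. Within the sets of arrays the change in eto1-4, 1 array minus 1 array, was 2.97 without and 3.02 with the poly-A spike. The signals in Col-0 and eto1-4 were 3.75 and 182.6 without the spike and 28.6 and 391.6 with it. The nearness of the 2 values thus rests on the offset. The size of the change over all arrays also depends on the offset, since the Col-0 mean lies below it. It was 4.50 with an offset of 1 (adjusted p = 0.0762) and 1.75 with an offset at the 40th percentile.

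The call of XTH26 in eto1-4 was lost when any of the 4 arrays compared was left out, with a change of 2.51 when Col-0 replicate 1 was missing (adjusted p = 0.135), 3.48 when it was Col-0 replicate 2 (0.119), 3.50 for eto1-4 replicate 1 (0.0681) and 2.49 for eto1-4 replicate 2 (0.0874). The call under 9370 was lost in the same way without either array of eto1-4 (0.0919 and 0.120), of 9370 (0.0981 and 0.0928) or of 7303 (0.0558 and 0.0551). Under AVG the call was lost without either eto1-4 array (0.0515 and 0.0547) and without AVG replicate 1 (0.152). On the arrays with the spike alone, the call was lost in eto1-4 (adjusted p = 0.0928) and under 9370 (-2.73, 0.0805), and the call under 9370 was also lost with an offset of 1 (0.173), with array weights (0.190) and in a fit of both groups alone (0.10).

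XTH19, known from roots and raised by auxin in earlier work, fell under 9370, 7303 and AVG. Its signal was 6744 and 6139.9 in Col-0 and 8282 and 9197 in eto1-4. It was 5278 and 4033 under 9393, 3783 and 3639 under 9370, 4189 and 4172 under 7303, and 3269 and 4402 under AVG. Both eto1-4 arrays were the highest of the 12, both Col-0 arrays came next, and all 8 treated arrays lay below the lower Col-0 array. The treated groups could not be fully ordered, since the ranges of 9393, 7303 and AVG overlapped along the order of means and AVG overlapped 9370. Both 9370 arrays lay below both arrays of 9393 and of 7303. The same held for 7.07% and 16.1% of all tested probe sets.

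The mean signal of XTH19 was 8739.6 ± 647 (SD) in eto1-4 and 6442 ± 427 in Col-0, a difference of 0.44 ± 0.20 on the log2 scale that was not called (adjusted p = 0.312). Against untreated eto1-4 it fell by 1.23 ± 0.20 under 9370 (adjusted p = 0.0177), by 1.06 under 7303 (0.0241) and by 1.20 under AVG (0.0151). The eto1-4 mean was 2.36, 2.09 and 2.28 times the mean under 9370, 7303 and AVG. Under 9393 the difference was -0.92 (95% interval -1.37 to -0.47, adjusted p = 0.0706), and it was called with the poly-A spike as a block (adjusted p = 0.0288). The fit with that block called 3.9% of all tested probe sets in this comparison, against 0.661% without it. Within the sets of arrays without and with the spike, the differences were -0.65 and -1.18 for 9393 and -1.13 and -1.33 for 9370. In AVG-treated eto1-4, XTH19 was also lower than in Col-0, by 0.76 ± 0.20 (adjusted p = 0.0451), where 9370, 7303 and 9393 had -0.79, -0.62 and -0.48 without a call. XTH19 was the member called in the moderated F test over the 6 groups (adjusted p = 0.0440), which called 2.07% of all tested probe sets, and there XTH26 had 0.0548, XTH32 0.115 and XTH33 0.169.

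These calls rested on few arrays, and arrays outside a comparison entered it only through the spread shared by all groups and the adjustment. XTH19 under 9370 was no longer called without either eto1-4 array (adjusted p = 0.0823 and 0.0512) or 9370 replicate 2 (0.0616), with array weights (0.0817) or in a fit of both groups alone (0.153). Array weights and the fit of both groups alone called 0.0472% and 0.0405% of all tested probe sets there, against 4.05% before. Under 7303 it was not called without either array of eto1-4 (0.117 and 0.0588) or of 7303 (0.168 and 0.159). Under AVG the call was lost without replicate 1 of eto1-4 (0.0709) or of AVG (0.172). The difference between AVG and Col-0 was lost without either array of Col-0 (0.181 and 0.192), eto1-4 (0.0521 for each), 7303 (0.0748 for each) or AVG (0.288 and 0.0861), and on the arrays with the spike alone (-0.69, adjusted p = 0.0645). It was also lost with no filter on dim probe sets (0.0723) and after median centring (0.0646).

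**Figure D1:**
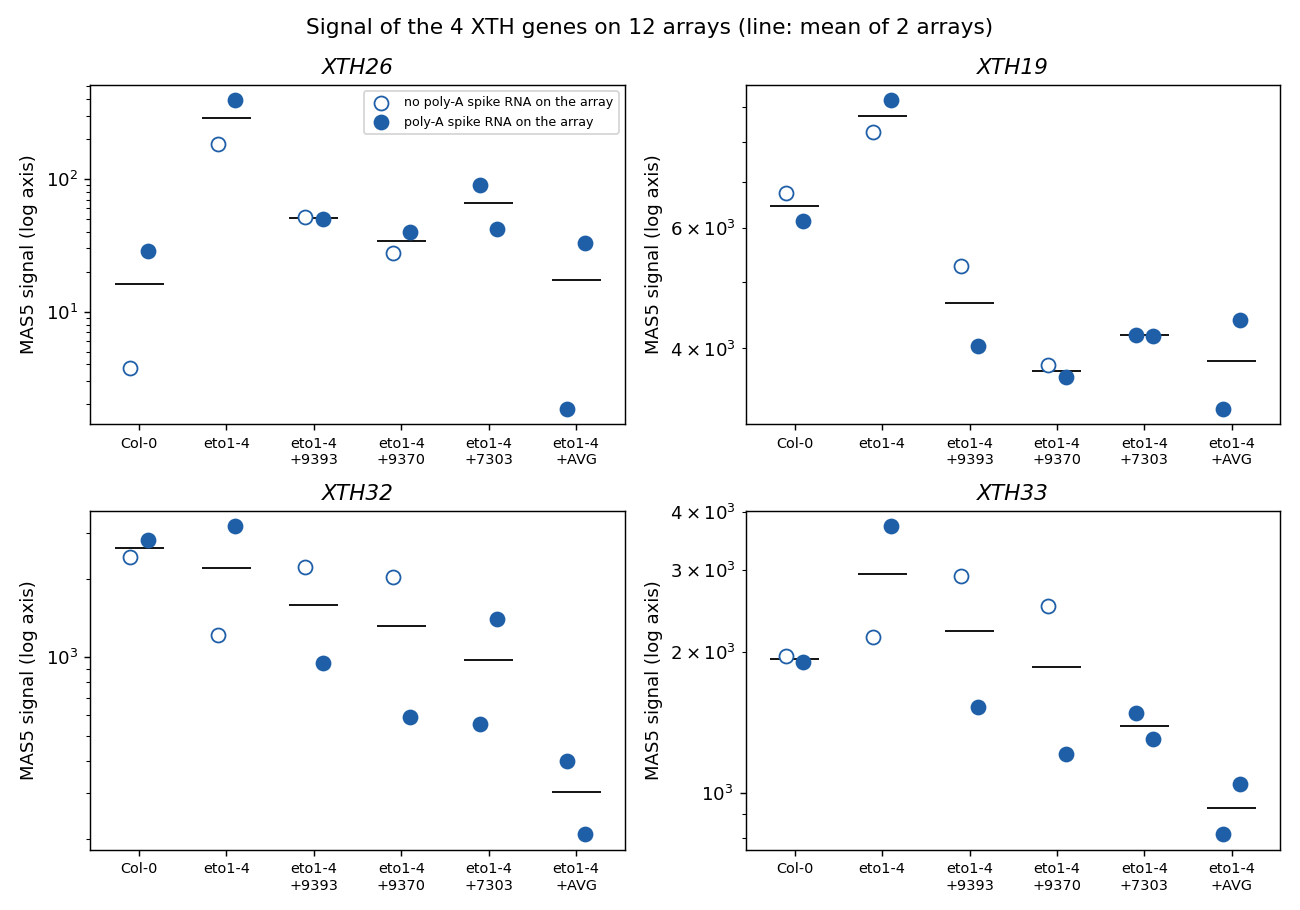
MAS5 signal of XTH26, XTH19, XTH32 and XTH33 on each of the 12 arrays (vertical axis, log scale, a range of its own for each gene) by group (horizontal axis), where the line is the mean of 2 arrays and open circles are the 4 arrays without poly-A spike RNA. XTH26 stands at 182.6 and 391.6 on the eto1-4 arrays and at most at 89.8 elsewhere, and XTH32 is lowest under AVG, at 400.7 and 208.5.

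XTH32 belongs with XTH31 to the group of the family for which hydrolysis of xyloglucan has been described, and it was lower in AVG-treated eto1-4 than in Col-0. Its signal was 2440.2 and 2832 in Col-0, 1219 and 3195 in eto1-4, 2227 and 949 under 9393, 2041 and 588 under 9370, 556 and 1404 under 7303, and 401 and 209 under AVG. Replicates differed widely in every group but Col-0, and neighbours among Col-0, eto1-4, 9393, 9370 and 7303 overlapped along the order of means. Both Col-0 arrays lay above both arrays of 9393, of 9370 and of 7303. The same held for 21.9%, 21.4% and 38.1% of all tested probe sets in these comparisons. Only the AVG group, with a mean of 305 ± 136 (SD), lay below all 10 other arrays.

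The Col-0 mean of XTH32, 2636 ± 277, was 8.65 times the AVG mean, a log2 difference of -3.08 ± 0.68 (adjusted p = 0.0276). Against untreated eto1-4, AVG gave -2.68 ± 0.68, just outside the threshold (adjusted p = 0.0511). On the arrays that carry the spike alone, where eto1-4 has 1 array, that value was -3.36. Among the other comparisons with eto1-4, XTH32 had -0.44 (95% interval -1.96 to 1.08) with 9393, -0.83 (-2.35 to 0.69) with 9370 and -1.14 (-2.66 to 0.38) with 7303, none called. For eto1-4 against Col-0 the difference was -0.41 (-1.93 to 1.11, adjusted p = 0.830). Leaving out any array of Col-0 or AVG lost the call between these groups, with adjusted p of 0.0997 and 0.185 for Col-0 and 0.111 and 0.130 for AVG. Conversely, without any 1 array of 9393 or 9370 the difference between AVG and eto1-4 was called, at adjusted p from 0.0308 to 0.0393. Those arrays are outside this comparison, so its difference stayed at -2.68. They enter it only through the spread shared by all groups and the adjustment over all probe sets.

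XTH33, described as a member held at the plasma membrane, fell under AVG. Its signal was 1963 and 1910.1 in Col-0, 2158 and 3733 in eto1-4, 2919 and 1524 under 9393, 2512 and 1211 under 9370, 1482 and 1301 under 7303, and 814 and 1044 under AVG. The AVG arrays were the lowest of the 12, and the 7303 arrays lay below both arrays of eto1-4 and of Col-0. The eto1-4, 9393, Col-0, 9370 and 7303 groups overlapped along the order of means.

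AVG took XTH33 from a mean of 2946 ± 1114 (SD) in eto1-4 to 929 ± 163, a fall by 1.60 ± 0.40 on the log2 scale (adjusted p = 0.0467). The value for 7303 was -1.02 (95% interval -1.90 to -0.14, adjusted p = 0.158), for 9370 -0.69 (adjusted p = 0.351) and for 9393 -0.42 (adjusted p = 0.681). Between eto1-4 and Col-0 it was 0.55 ± 0.40 (adjusted p = 0.547). The call under AVG was lost with the spike as a block (-1.45, adjusted p = 0.0569), with no filter on dim probe sets (0.0651), after median centring (0.0549), without the intensity trend (0.0503) and in a fit of eto1-4 and AVG alone (0.0568). It was also lost without any 1 array of Col-0 (0.0764 and 0.0763), eto1-4 (0.0977 and 0.147), 7303 (0.0787 for each) or AVG (0.298 and 0.107). On the arrays with the spike alone, eto1-4, 9393, 9370 and Col-0 have 1 array each. There XTH33 stood at -1.99 under AVG, -1.41 under 7303, -1.61 under 9370 and -1.28 under 9393 against eto1-4. Between AVG and Col-0 it was -1.03.

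For 9393 and 9370 against eto1-4, XTH32 and XTH33 had opposite signs in the sets of arrays with and without the poly-A spike. On the arrays without it, 9393 stood at 0.86 for XTH32 and 0.43 for XTH33, and on those with it at -1.73 and -1.28. For 9370 the values were 0.73 and 0.22 without the spike and -2.40 and -1.61 with it. Each is 1 array minus 1 array, with no test. XTH26 and XTH19 lay below eto1-4 in both sets, under both compounds. Of all tested probe sets, 37.6% for 9393 and 36.0% for 9370 had opposite signs in the sets. The part of the split by poly-A spike, and of the seed transcripts on eto1-4 replicate 1, in these differences was not tested.

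**Figure D2:**
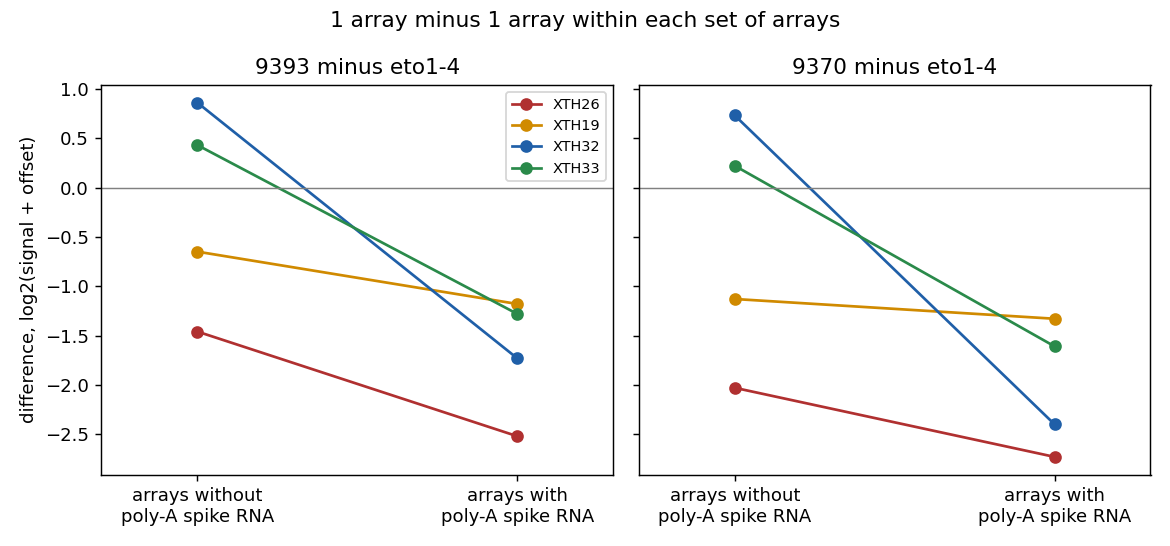
Difference from untreated eto1-4 in log2(signal + offset) (vertical axis) under 9393 (left) and 9370 (right), taken as 1 array minus 1 array within the arrays without and with poly-A spike RNA (horizontal axis). The lines of XTH32 and XTH33 cross 0, from 0.86 to -1.73 and from 0.43 to -1.28 under 9393, while XTH26 and XTH19 stay below 0 in both panels.

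Since the 4 genes were picked with earlier results known, their counts beside the share of all probe sets are a description and no evidence that the genes are particular. Counted over the 4, 1, XTH26, was called higher in eto1-4 than in Col-0, where 0.978% of all tested probe sets were. XTH26, XTH19 and XTH33 lay above Col-0 with no overlap of ranges, as did 21.5% of the tested probe sets. Against eto1-4, 0 were called under 9393 (background 0.310% lower), 2 fell under 9370 (background 1.96%), 1 fell under 7303 (1.72%) and 3 fell under AVG (2.37%). The count under 9393 was 2 at an unadjusted p under 0.05 (XTH19 and XTH26), as was also the case for 15.5% of all tested probe sets in either direction. These 4 comparisons share the eto1-4 arrays, as does the one with Col-0, so they are not independent of each other. All 4 genes lay below eto1-4 with no overlap of ranges under AVG, where 30.1% of tested probe sets did. For 7303 this held for 3 (32.8%), and for 9393 and 9370 for 2 (18.9% and 20.2%). When a fit held the groups of a comparison and no others, no member was called under 9370 or AVG, at adjusted p of 0.0513 for XTH26 and for XTH19 under AVG.

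Against Col-0, AVG left 2 of the 4 genes called lower, XTH19 and XTH32 (background 4.80%). XTH33 stood at -1.05 ± 0.40 (adjusted p = 0.118), and was called with array weights (0.0168) and in a fit of both groups alone (0.00956), where 25.6% and 22.0% of all probe sets were called, and XTH26 at 0.00. No member was called between Col-0 and 9393, 9370 or 7303, comparisons in which 0 of the 14830 probe sets were called in limma. That 0 depends on the fit for 7303, where 3443 probe sets (23.2%) were called with array weights, 3117 (21.0%) in a fit of both groups alone and 1692 on the arrays with the spike alone, and 1, 2 and 0 members among them. On the arrays with the spike alone, 386 probe sets were called for 9393 and 558 for 9370, with no member. At an unadjusted p under 0.05 there were 1, 1 and 3 members, and 9.70%, 12.2% and 23.6% of all tested probe sets. For 7303 these were XTH19 at -0.62 (95% interval -1.07 to -0.17), XTH26 at 1.22 (0.08 to 2.36) and XTH32 at -1.55 (-3.07 to -0.02).

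**Figure D3:**
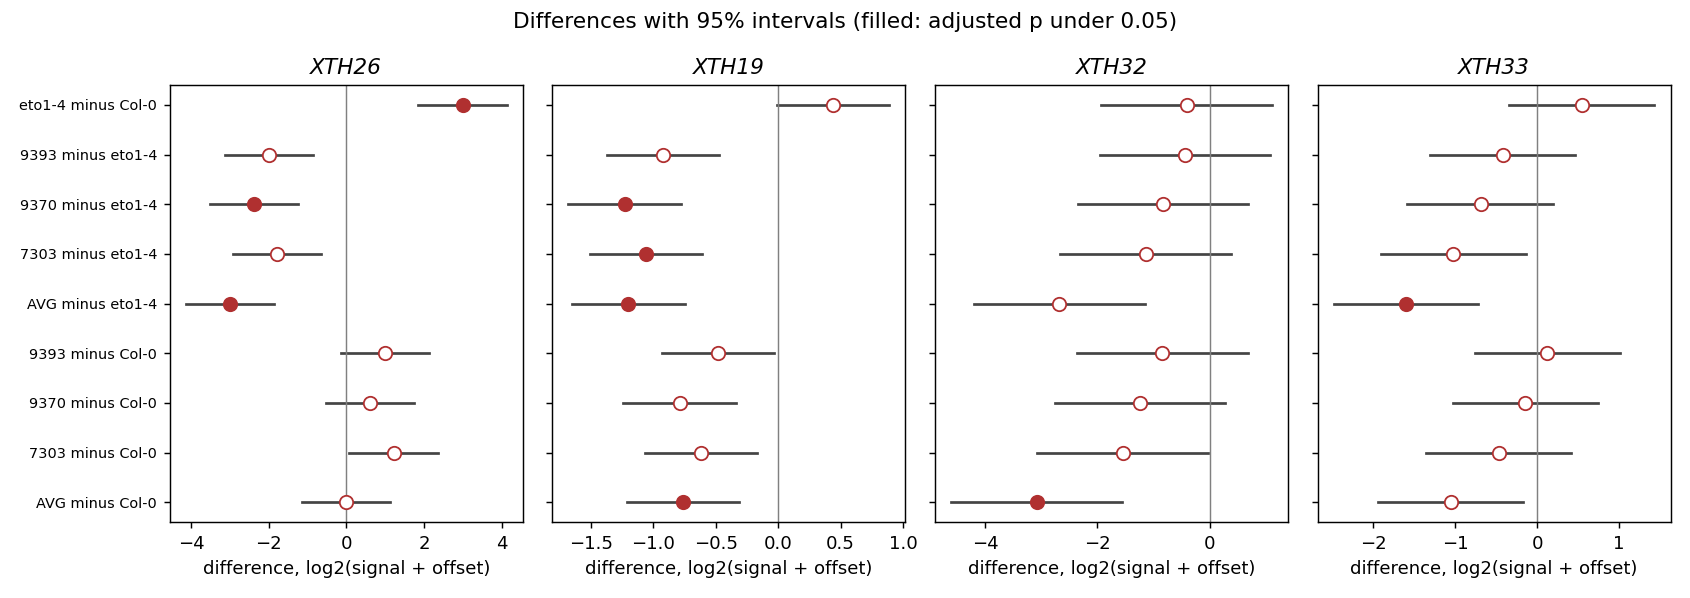
Differences between groups in log2(signal + offset) (horizontal axis, a range of its own for each gene) for XTH26, XTH19, XTH32 and XTH33 in 9 comparisons (vertical axis), with 95% intervals as bars and filled points at adjusted p under 0.05. XTH26 is filled at 3.00 for eto1-4 minus Col-0, and XTH26, XTH19 and XTH33 are filled for AVG minus eto1-4, at -2.99, -1.20 and -1.60.

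The treatments were also compared with each other, all at 10 µM, in 6 comparisons and 24 tests of members. None was called, and 6 had an unadjusted p under 0.05. In 5 of these AVG had the lower value of XTH32 or XTH33, and in the sixth the lower value of XTH26. For XTH32, 9393 exceeded AVG by 2.24 (95% interval 0.72 to 3.76), 9370 by 1.84 (0.32 to 3.37) and 7303 by 1.54 (0.02 to 3.06). For XTH33 the difference from AVG was 1.18 (0.29 to 2.06) with 9393 and 0.91 (0.02 to 1.79) with 9370. XTH26 was higher by 1.22 (0.08 to 2.36) with 7303 than with AVG. After adjustment over all probe sets these had p from 0.264 to 1. Both AVG arrays carried the spike, while 9393 and 9370 each had 1 array without it. On the arrays with the spike, 1 each for 9393 and 9370, the differences from AVG were smaller. They were 1.64 with 9393 and 0.97 with 9370 for XTH32, and 0.71 and 0.39 for XTH33. In 9393 and 9370 against AVG 0.00674% of probe sets were called, and 0 in the other 4 comparisons. The share at an unadjusted p under 0.05 was 11.8% for 9393, 12.9% for 9370 and 3.96% for 7303 against AVG. It was 0.890% for 9393 against 9370, 5.13% for 9393 against 7303 and 6.47% for 9370 against 7303, comparisons in which no member reached it. Between 9393, 9370 and 7303, XTH19 differed by -0.17 to 0.31, with intervals from -0.62 to 0.76, and XTH32 by 0.31 to 0.70, with intervals from -1.22 to 2.22, widths that leave differences of either sign possible.

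The family list holds 33 XTH genes, of which 10 had a named probe set and 7 were tested. XTH20, XTH21 and XTH29 were too dim, with highest signals of 158.6, 66.5 and 34.3. Of the 7 tested, 1 was called higher in eto1-4 than in Col-0, and 0, 2, 1 and 3 fell under 9393, 9370, 7303 and AVG against eto1-4. The genes called were all among the 4 described above. The median difference of the 7 was 0.44 in eto1-4 and then -0.44, -0.69, -1.02 and -1.20, beside -0.03, -0.01, 0.01, -0.05 and -0.04 over all tested probe sets. As 4 of the 7 are the members picked with earlier results known, these medians are no evidence about the family. Under AVG against eto1-4 the others stood at 0.08 (XTH16), -0.36 (XTH18) and 0.53 (XTH27).

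XTH18, next to XTH19 on chromosome 4 and, like it, known from roots, had a mean signal of 6758 ± 1111 (SD) in Col-0 and 9195 ± 1318 in eto1-4, a log2 difference of 0.45. Under 9393, 9370, 7303 and AVG it stood at -0.67, -0.31, -0.45 and -0.36 against eto1-4, where XTH19 had -0.92, -1.23, -1.06 and -1.20. None of the XTH18 values was called, and the difference between these neighbours was not tested. Their sequences are related, and whether a probe set also binds the other transcript was not checked. XTH16 lay between -0.20 and 0.30 in the 5 comparisons and XTH27 between -0.07 and 0.66, none called.

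**Figure D4:**
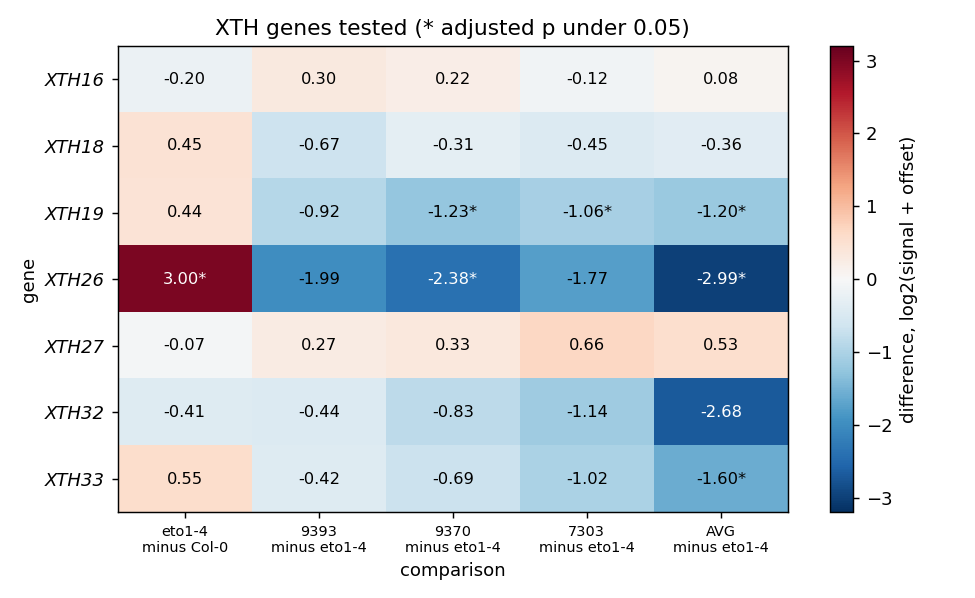
Differences in log2(signal + offset) (colour and number) for the 7 tested XTH genes (rows) in 5 comparisons (columns), with an asterisk at adjusted p under 0.05. XTH26, XTH19 and XTH33 carry the asterisks, and XTH27 stands at 0.66 under 7303 against eto1-4.

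Xyloglucan is made by glucan synthases of the CSLC family and decorated by xylosyl- and other transferases. Of 17 genes listed for its synthesis and trimming, 5 had a named probe set, CSLC4, CSLC5, CSLC6, CSLC8 and CSLC12, and all 5 were tested. None was called between eto1-4 and Col-0 or between a treatment and eto1-4, with medians of -0.08 in eto1-4 and -0.10 to -0.42 under the treatments. The closest was CSLC5, at -0.85 ± 0.21 under 9370 (adjusted p = 0.0562) and -0.77 ± 0.21 under AVG (0.0627). CSLC6 was lower under AVG than in Col-0, by 0.72 ± 0.19 (adjusted p = 0.0455).

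Root hair genes were set beside XTH26, since it is known from those cells. Of 20 listed, 4 had a named probe set: PRX44 (AT4G26010), a peroxidase, the expansins EXPA7 and EXPA18, and SCN1, a regulator of ROP GTPases that limits where hairs start. Their summed signal was 2326 to 2896 in Col-0, 4274 to 5616 in eto1-4 and between 2968 and 3853 in the treated groups, and none was at 0 on any array. The sums mix genes that moved differently. SCN1 did not fall with treatment, with a mean of 1439 in Col-0, 1729 in eto1-4 and 1749 to 2041 in the treated groups. The eto1-4 differences were 1.57 ± 0.37 for PRX44 (adjusted p = 0.0640), 1.11 for EXPA18 (0.146), 1.05 for EXPA7 (0.188) and 0.26 for SCN1 (0.473), none called. PRX44 fell by 1.56 ± 0.37 under AVG against eto1-4 (adjusted p = 0.0422). Their part in the XTH26 result was not tested.

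**Figure D5:**
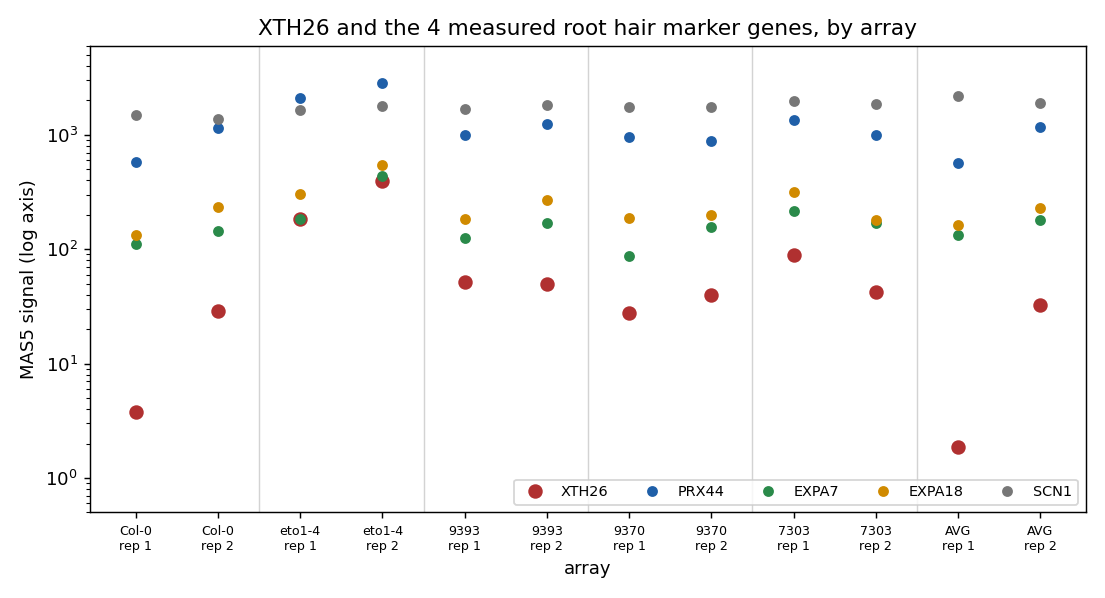
MAS5 signal (vertical axis, log scale) of XTH26 and of the root hair genes PRX44, EXPA7, EXPA18 and SCN1 on each of the 12 arrays (horizontal axis, 2 per group). XTH26, PRX44, EXPA7 and EXPA18 are highest on eto1-4 replicate 2, where XTH26 is at 391.6.

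Of 7 other root genes and 5 genes of etiolated shoots listed, 1 each had a named probe set. PYK10, an abundant root and hypocotyl beta-glucosidase, lay between 14113 and 21112 on the 12 arrays. PORB, the protochlorophyllide reductase of dark-grown and greening shoots, lay between 4136 and 15950.0. Against Col-0 it was called lower under AVG (-1.48, adjusted p = 0.0299), as were XTH19 and XTH32. Without a call, PORB stood at -1.73 under 7303 (adjusted p = 0.0516), -1.16 under 9370, -1.04 under 9393 and -0.52 in untreated eto1-4. The part of PORB in the XTH19 and XTH32 results was not tested.

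Likeness of pattern was measured by Pearson's r of log2(signal + offset) over the 12 arrays, as a description: points share groups and the sets with or without the spike. The genes most like XTH26 were the peroxidase family gene AT3G49960 (r = 0.966), PRX44 (0.965) and CYP718, a cytochrome P450 (0.952). AT3G49960 had mean signals of 83.1 in Col-0, 526 in eto1-4 and 56.8 under AVG, and CYP718 had 12.5, 332 and 29.4. The genes most like XTH19 were AT1G04990 (0.969), APL3, a large subunit of ADP-glucose pyrophosphorylase (0.961), and AT2G22900 (0.960). XTH32 was most like AT2G46420 (0.970), AT2G32560 (0.954) and AT3G49220 (0.954). For XTH33 they were AT5G57970 (0.953), AT2G37580 (0.949) and AFR, an F-box protein of phytochrome signalling (0.935). Among the members themselves r was highest between XTH32 and XTH33 (0.836) and lowest between XTH26 and XTH32 (0.257). On the 8 arrays with the spike, XTH33 had 0.934 with XTH19, 0.891 with XTH26 and 0.822 with XTH32.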

How the data were processed

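Transcripts were measured on 12 arrays. The authors deposited 1 linear signal intensity per probe set and array, made with MAS5 per the submitters' processing notes (version not stated), and no detection calls were used here. The trimmed mean intensity was 500.039 to 500.045 on every array and the median 156 to 190.0, and the number of arrays limits the precision. No label ties a replicate to a culture of its own, so a p-value here reflects the scatter of these arrays alone, which may be technical.

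Intensities were taken to log2 after adding 22.4, the 20th percentile of all signals, so changes of dim genes are understated. A probe set was tested where 2 or more arrays had it over their own 40th percentile (14830 probe sets, with 64 array controls left out). They were fitted with limma 3.58.1 in R 4.3.3, with 6 group means, an intensity trend, and degrees of freedom of 6 (residual) and 4.07 (prior). Benjamini-Hochberg adjustment was made within each of 15 comparisons and in a 6-group F test, and the procedure was tested on simulated data. Genes were named through the platform annotation and TAIR10.1 locus tags. All 4 members, the measured XTH genes and the 3 genes most like each member were named. The members and lists were chosen with earlier results of these data known. The cut between arrays with and without poly-A spike RNA, a median signal of 20, was set after the control probe sets were seen. The alternatives changed the offset, filter, normalization, variance model, array weights, blocks and arrays used. Of 3 listed genes of light-grown leaves none was measured. Promoter motifs were not analysed here.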

Additional observations from a re-analysis of the deposited data

Results flagged for a closer look

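In the sets of arrays with and without poly-A spike RNA, 7 differences of XTH32 and XTH33 had opposite signs. Each set holds 1 array per group here, so the gap between the sets, given as the value with the spike minus that without, was not tested. For XTH32 the gap was 1.16 for eto1-4 minus Col-0 (-0.99 without and 0.17 with the spike), -2.59 for 9393 minus eto1-4 and -3.13 for 9370 minus eto1-4. For XTH33 it was -1.71 for 9393 minus eto1-4 and -1.82 for 9370 minus eto1-4. Against Col-0, XTH33 had a gap of -0.89 with 9393 (0.57 without and -0.32 with the spike) and of -1.0 with 9370 (0.35 and -0.65). Over all tested probe sets the share with opposite signs was 34.2% for eto1-4 minus Col-0, 45.4% for 9393 minus Col-0 and 44.8% for 9370 minus Col-0. In each of these 1 of the 4 members had opposite signs. The share was 37.6% and 36.0% for 9393 and 9370 minus eto1-4, with 2 of the 4 members each. For 9393 minus 9370 it was 47.3%, with 0 members. The counts are thus no evidence that these genes are particular.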

How the results depend on the processing

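Counts below are of the 4 members called, and the cause of a change was not tested. The share of all probe sets called also moved. For 9370 minus eto1-4 it was 4.05% in the fit used above, 0.0472% with array weights and 0.0405% with only the groups compared. For 9393 minus eto1-4 it was 0.661%, and 3.9% with the spike as a block. For AVG minus eto1-4 it was 5.32%, and 8.5% with array weights, 7.5% with the replicate block and 2.38% with only the groups compared. On spiked arrays alone, Col-0, eto1-4, 9393 and 9370 have 1 array each. The F test gave 1; it gave 2 with an offset at the 40th percentile, with the replicate block and with the spike as a block, 4 with array weights (13.4% of all probe sets called, against 2.07%), 0 with no filter, and 0 to 1 with 1 array left out. For eto1-4 minus Col-0 the count of 1 became 0 with an offset of 1 and on spiked arrays alone (0 to 1 with 1 array left out). For 9393 minus eto1-4 the count of 0 became 2 with the spike as a block. For 9370 minus eto1-4 the count of 2 became 1 with an offset of 1, 0 with array weights and 0 with only the groups compared (0 to 2 with 1 array left out). For 7303 minus eto1-4 the count of 1 became 2 with an offset at the 40th percentile, with the spike as a block and on spiked arrays alone (0 to 1 with 1 array left out). For AVG minus eto1-4 the count of 3 became 4 with array weights, with the replicate block and on spiked arrays alone, 2 with no filter, median centring, no intensity trend or the spike as a block, and 0 with only the groups compared (0 to 4 with 1 array left out). Against Col-0, 7303 went from 0 to 1 with array weights and 2 with only the groups compared, fits that called 23.2% and 21.0% of all probe sets. Other settings called 0 members there, and 215 probe sets with an offset at the 40th percentile, 225 with median centring, 354 with the replicate block, 286 with the spike as a block and 1692 on spiked arrays alone. AVG minus Col-0 went from 2 to 1 with no filter or median centring and to 3 with array weights or only the groups compared (0 to 2 with 1 array left out).

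No value that turned sign had been called. XTH26 for AVG minus Col-0 turned to -0.27 with an offset of 1, -0.04 with quantile normalization, -0.28 with the spike as a block and -0.48 on spiked arrays alone, and for 9393 minus 7303 to 0.06 with the spike as a block. On spiked arrays alone XTH19 for 9393 minus 7303 turned to -0.05, XTH32 for eto1-4 minus Col-0 to 0.17 and for 9370 minus 7303 to -0.57, and XTH33 for 9393 minus Col-0 to -0.32 and for 9370 minus 7303 to -0.19. With 1 array left out, XTH26 ranged from -0.59 to 0.59 for AVG minus Col-0 and from -0.62 to 0.18 for 9393 minus 7303. XTH19 ranged from -0.05 to 0.33 for 9393 minus 7303, from -0.25 to 0.18 for 9370 minus AVG and from -0.07 to 0.35 for 7303 minus AVG. XTH32 ranged from -1.09 to 0.28 for eto1-4 minus Col-0, from -1.12 to 0.25 for 9393 minus eto1-4, from -1.71 to 0.05 for 9370 minus eto1-4, from -0.48 to 1.28 for 9393 minus 9370 and from -0.57 to 1.18 for 9370 minus 7303. XTH33 ranged from -0.89 to 0.04 for 9393 minus eto1-4, from -0.34 to 0.59 for 9393 minus Col-0, from -0.67 to 0.37 for 9370 minus Col-0, from -0.25 to 0.79 for 9393 minus 9370 and from -0.19 to 0.85 for 9370 minus 7303.

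Deviations of arrays with the same replicate number correlated from -0.27 to 0.78, over 0.1 in 5 of 15 pairs of groups, so the numbers were not taken to pair the samples of all 6 groups. These 5 lay among the 6 pairs of Col-0, eto1-4, 9393 and 9370, whose replicate 1 lacks the spike (0.03 to 0.78), and the other 9 pairs ranged from -0.27 to 0.09. With the replicate block, XTH32 for AVG minus eto1-4 was called (-2.68, adjusted p = 0.0489), XTH26 was called beside XTH19 in the F test, and no other call changed. Over all member values and settings other than leaving out an array, 617 kept their direction and side of the threshold, 15 gained a call, 18 lost one and 10 turned sign. With 1 array left out these numbers were 654, 4, 42 and 20. Most member values were not called at the start and had no call to lose, so the large numbers do not show that the calls were stable. An array left alone in its group was assumed to vary like the others. Leaving out an array outside a comparison kept the difference and changed the shared spread and the adjustment.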
